A study of Apis mellifera with 12 samples.

Results

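Antennae of honey bee (Apis mellifera) foragers, workers that fetch nectar and pollen, were compared with antennae of nurses, workers that tend brood inside it. The comparison uses 6 of the 12 RNA-seq libraries of the study, chosen by their labels: 3 of forager antennae and 3 of nurse antennae. The other 6 libraries came from newly emerged workers and from defenders, 3 each. They enter the statistical fits only to estimate the spread between libraries, and a few of their levels are given for orientation. RNA was sequenced on the DNBSEQ platform, and the question named by the study's title is how antennal transcripts differ among workers that divide the labour of a colony. No mutation, drug or infection is named for either group, so both are untreated workers as far as the labels say. The age of the bees, their colony, the number of bees in a library and the way tasks were recognised were not stated in the sources used here. Foragers are as a rule older than nurses, so task and age cannot be told apart. The labels' fields on growth, extraction and processing describe a chromatin assay on human cells, which cannot apply, and nothing here rests on them.

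The antenna is the main organ of smell and taste of the bee. It holds olfactory and gustatory neurons under a hardened cuticle, support cells that secrete odorant binding proteins into the fluid around the neurons, the circulating blood with its cells, and at its base the muscles that move it. A worker usually nurses first and forages later. In the body, nursing goes with active food glands in the head, which make royal jelly proteins, and with high vitellogenin in the fat body, while in foragers the same glands turn to enzymes that split the sugars of nectar.

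The 6 libraries held between 76019071 and 100255711 counts, and odorant binding protein genes, which are typical of antennae, were abundant in both groups, at 46945 to 64948 summed CPM (counts scaled to a common library size) in foragers and 49192 to 50795 CPM in nurses. Of 11271 genes tested with edgeR's quasi-likelihood test, 452 (4.01%) differed at a Benjamini-Hochberg adjusted p under 0.05. Of these, 215 (1.91% of the genes tested) were higher in foragers and 237 (2.1%) were lower. The change was at least 1 on the log2 scale for 171 genes (1.52%), 83 of them higher and 88 lower. All 3 forager libraries lay above all 3 nurse libraries for 1035 genes (9.18%) and below them for 1005 (8.92%), in all 2040 genes (18.1%), and 451 of the 452 genes called were among these. On the first principal component of the 6 libraries, which held 41.4% of the variance, foragers 1, 2 and 3 lay at -17.3, -36.6 and -9.66 and nurses 1, 2 and 3 at 20.3, 23.8 and 19.5. Forager 2 stood apart from the other foragers, with a chi-square per gene of 336 and 270 against foragers 1 and 3, where other pairs of 1 group gave 95 to 178. The labels do not say that libraries came from separate bees or colonies, so the p-values rest only on the spread seen among these libraries, which may be technical. In whole antennae, fewer cells of a type and less RNA per cell cannot be told apart, here and below.

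**Figure D1:**
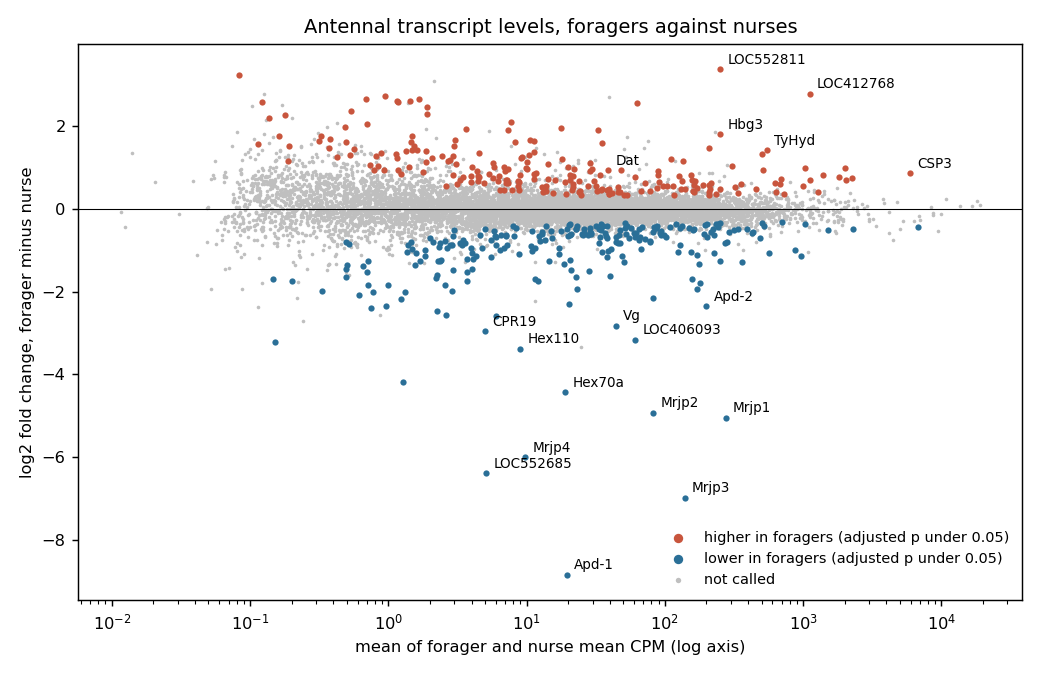
Each point is a gene: its log2 fold change (forager minus nurse) against the average of the forager and the nurse mean CPM on a log axis, with the 452 genes that passed the test in colour. The largest changes among called genes were lower in foragers, with Apd-1 at -8.85 and Mrjp3 at -6.99, while the largest in the other direction was LOC552811 at 3.38.

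A cuticle protein gene gave the largest change of all genes called. Apidermins are small structural proteins of the bee's cuticle, and Apd-1 was almost silent in foragers. Its level was 0.150, 0 and 0.102 CPM in foragers 1, 2 and 3, which is 15, 0 and 8 reads, against 31.8, 58.1 and 26.8 CPM in nurses 1, 2 and 3, or 2960, 4296 and 2566 reads. The libraries of the groups lie far apart (log2 fold change -8.85, SE 0.67, adjusted p = 6.64e-05), although a fold against a level this near 0 depends on the small number added in the fit. Apd-2 was at 48.8, 95.1 and 53.0 CPM in foragers and 359, 253 and 391 CPM in nurses (log2 fold change -2.35, SE 0.29, adjusted p = 0.00112), the smallest change of the trio. The level of Apd-3 was at 0.120, 0.180 and 0.0895 CPM in foragers and 2.21, 3.48 and 1.56 CPM in nurses (log2 fold change -4.18, adjusted p = 0.000682). None of the 3 genes had a forager library above the lowest nurse library, and each passed without any 1 of the 6 libraries. The log2 fold change of Apd-1 was -9.70 without forager 1 and -8.23 without forager 2.

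Levels of these genes in the other groups of workers varied. Apd-1 averaged 40.2 ± 19.3 CPM in newly emerged workers (SD, n = 3), close to its 38.9 ± 16.8 CPM in nurses, and 0.0815 ± 0.0680 CPM in defenders. CPR19, a cuticle protein with the chitin-binding Rebers-Riddiford motif, was at 0.728, 0.940 and 1.79 CPM in foragers and 9.05, 12.6 and 4.89 CPM in nurses (log2 fold change -2.96, SE 0.40, adjusted p = 0.00214), but at 277 ± 28.4 CPM in newly emerged workers. CPR6 averaged 0.444 ± 0.186 CPM in foragers, 2.03 ± 0.926 CPM in nurses and 138 ± 32.6 CPM in newly emerged workers. The mean of Apd-1 was thus similar in nurses and newly emerged workers, while for CPR19 and CPR6 the nurse mean was far below that of newly emerged workers. These differences from the other groups were not tested here.

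Of 25 tested cuticle protein genes with a matching symbol, 7 were lower in foragers and 1 was higher, against 2.1% and 1.91% of all genes. The 7 are Apd-1, Apd-2, Apd-3, CPR19, CPR6, CPR28 and Cpap3-b, the last a protein with chitin-binding domains of the peritrophin type. The median log2 fold change of the 25 was -0.32, where that of all genes tested was 0.01. Among the 17 that did not pass, CPR14 averaged 524 ± 19.5 CPM in foragers and 574 ± 136 CPM in nurses (adjusted p = 0.762). The gene that was higher, CPR21, was at 0.409, 0.540 and 0.703 CPM in foragers and 0.214, 0.149 and 0.219 CPM in nurses, from 41 to 55 reads in foragers and 11 to 21 in nurses (log2 fold change 1.48, adjusted p = 0.0260), and lost its call without forager 2 or 3 or nurse 1 or 2. A separate tested gene, apd-3, whose name differs from Apd-3 only in case, was not called, at 0.137 ± 0.0353 CPM in foragers and 0.380 ± 0.167 CPM in nurses (log2 fold change -1.45, adjusted p = 0.255). Apd-1, Apd-2 and Apd-3 lie next to each other, and how reads shared between similar copies were counted was not stated, so their separate values are uncertain.

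Enzymes of cuticle tanning, the hardening and darkening of cuticle through dopamine-derived quinones, were higher in foragers for 2 of 5 genes tested, against 1.91% of all genes. TyHyd, tyrosine hydroxylase, makes the dopa from which dopamine and melanin are built. It was at 1105, 760.5 and 512 CPM in foragers and 347, 278 and 267 CPM in nurses (log2 fold change 1.41, SE 0.28, adjusted p = 0.0172). Y-f, a gene of the yellow family whose relatives in Drosophila act on dopachrome, was at 142.5, 85.3 and 115 CPM in foragers and 65.0, 54.2 and 73.4 CPM in nurses (log2 fold change 0.83, adjusted p = 0.0181). Forager 1 was highest for both genes, and no forager library overlapped a nurse library. Both calls ended without forager 1 (adjusted p up to 0.0855 and 0.0905) or nurse 2, and that of Y-f also without nurse 1. The remaining tanning genes, Y-e3, Y-h and Y-y, did not pass, with log2 fold changes of 0.55, -0.17 and 0.09.

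Of 9 genes of royal jelly proteins, the food proteins that nurse glands secrete, 5 were lower in foragers and 0 higher, against 2.1% and 1.91% of all genes. Mrjp1, the most abundant royal jelly protein, was at 6.08, 0.860 and 41.7 CPM in foragers and 1236, 238 and 132 CPM in nurses (log2 fold change -5.05, SE 1.25, adjusted p = 0.0483). Mrjp3 was at 0.738, 0.110 and 5.87 CPM in foragers and 545, 205 and 77.7 CPM in nurses (log2 fold change -6.99, SE 1.17, adjusted p = 0.00835). Mrjp4 was at 0.209, 0.180 and 0.537 CPM in foragers, from 18 to 42 reads, and 36.7, 16.5 and 4.57 CPM in nurses (log2 fold change -6.00, SE 0.74, adjusted p = 0.00112). The levels spread widely inside each group, but no forager reached the lowest nurse for these genes.

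The 5 are Mrjp1, Mrjp2, Mrjp3, Mrjp4 and Mrjp7, and the median log2 fold change of the 9 was -3.35. Mrjp5 and Mrjp6 did not pass (log2 fold changes -3.35 and -0.31, adjusted p = 0.118 and 0.871). Mrjp8 and Mrjp9, older members of the family that are not typical of the jelly, had log2 fold changes above 0 but did not pass: Mrjp9 was at 376, 507 and 346 CPM in foragers and 295, 275.5 and 257 CPM in nurses (log2 fold change 0.57, adjusted p = 0.0665), with no overlap of the libraries. Mrjp1 to Mrjp7 followed 1 order of libraries in all 7 genes, with forager 3 the highest forager and nurse 1 above nurse 2 above nurse 3. The number of lower genes was 2 without forager 1, 2 without forager 2, 3 without nurse 1 and 1 with only the forager and nurse libraries in the fit. The log2 fold change of Mrjp1 was -7.27 without forager 3 and -3.52 without nurse 1, and its call ended without forager 1, forager 2, nurse 1 or nurse 2. Without forager 3 and without nurse 1, the log2 fold change was -9.34 and -6.02 for Mrjp3, -6.62 and -5.12 for Mrjp4, and -6.77 and -3.43 for Mrjp2. Mrjp3 and Mrjp4 passed without any 1 library, while the call of Mrjp2 ended without forager 1, forager 2 or nurse 1. The summed level of the 9 genes ran from 440.1 to 585.7 CPM in foragers and from 586.5 to 2696 CPM in nurses. The family lies in tandem, so reads of near copies may be shared among members. The food glands are in the head and not in the antenna, and whether RNA from other tissue was in the libraries was not tested.

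Vitellogenin, the yolk precursor that nurses store in their fat body, was lower in foragers, as were 2 of 3 hexamerins, storage proteins of larvae and young adults. Of these 4 genes 3 were thus lower and 0 higher, against 2.1% and 1.91% of all genes. Vg was at 11.8, 11.1 and 9.78 CPM in foragers and 25.6, 141 and 65.6 CPM in nurses (log2 fold change -2.82, SE 0.48, adjusted p = 0.00769). Hex70a was at 3.23, 1.09 and 0.639 CPM in foragers and 12.2, 54.1 and 42.4 CPM in nurses (log2 fold change -4.44, SE 0.82, adjusted p = 0.0123). Hex110 averaged 1.57 ± 0.669 CPM in foragers and 16.5 ± 14.9 CPM in nurses (log2 fold change -3.38, adjusted p = 0.0149), and HEX70b, the remaining member of 4 tested, was not called (log2 fold change 0.38, adjusted p = 0.626). For Vg, Hex70a and Hex110 nurse 2 was highest, then nurse 3, then nurse 1, which is not the order of the royal jelly genes. With only the forager and nurse libraries 1 of the 3 passed. Hex70a lost its call without forager 2 and had a log2 fold change of -5.37 without forager 1. Hex110 lost its call without forager 2 or nurse 2 (-2.38 on the log2 scale without nurse 2), while Vg kept its call without any 1 library, with a log2 fold change of -2.06 without nurse 2.

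**Figure D2:**
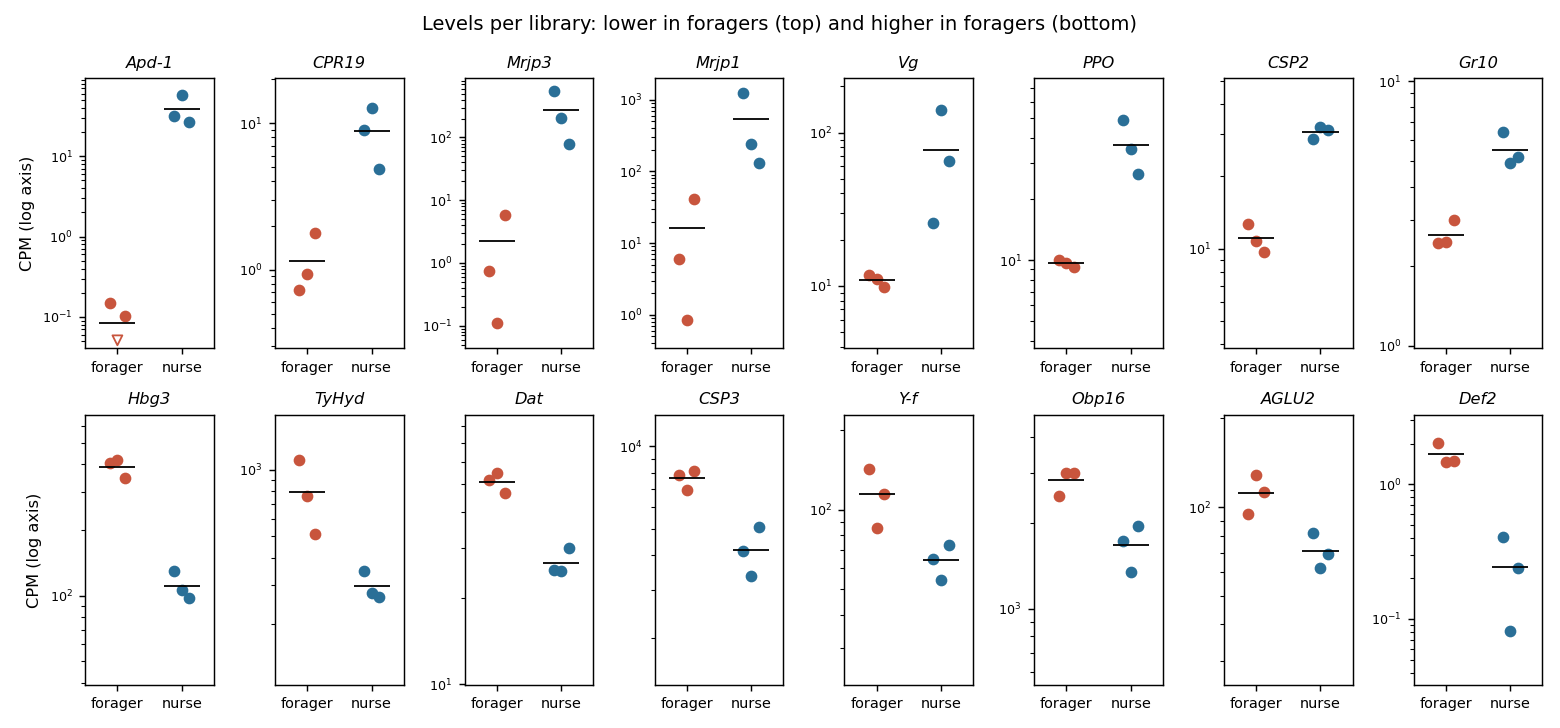
CPM on a log axis in each of 3 forager and 3 nurse libraries, in the order of their numbers from left to right, for 8 genes that were lower in foragers (top) and 8 that were higher (bottom). Lines are group means, and the open triangle for Apd-1 marks the forager library with no read, drawn at the lower edge. In none of the 16 genes did a forager library overlap a nurse library.

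PPO, the gene of the prophenoloxidase that blood cells release for melanin formation in wounds and around intruders, was at 9.99, 9.65 and 9.24 CPM in foragers and 48.8, 35.3 and 26.4 CPM in nurses (log2 fold change -1.93, SE 0.18, adjusted p = 0.000199). The 3 forager libraries lay within 1 CPM of each other and far below every nurse library. PPO was the only blood cell marker with a symbol among those tested, so a lower share of blood cells and a lower level per cell cannot be told apart. It passed without any 1 of the 6 libraries. An antimicrobial peptide gene was higher in foragers. Def2, a defensin, was at 2.03, 1.46 and 1.496 CPM in foragers and 0.407, 0.0812 and 0.240 CPM in nurses (log2 fold change 2.74, adjusted p = 0.0169), from 117 to 204 reads in foragers and 6 to 38 in nurses. Without forager 1 or nurse 2 it did not pass. Apid1, an apidaecin, was at 109.5, 118 and 85.6 CPM in foragers and 36.5, 40.1 and 35.8 CPM in nurses, and Def1 averaged 114 ± 30.4 CPM in foragers and 36.6 ± 23.5 CPM in nurses. Neither passed (log2 fold changes 1.48 and 1.63, adjusted p = 0.116 and 0.282), although the libraries did not overlap. Of 5 genes in the list of antimicrobial peptides and recognition proteins, 1 was called, against 4.01% of all genes.

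Of 3 genes of gland enzymes, 2 were higher in foragers and 0 lower, against 1.91% and 2.1% of all genes, and both encode enzymes that split sucrose. Hbg3, the alpha-glucosidase that forager head glands secrete into nectar, was at 405, 419.7 and 345 CPM in foragers and 130.3, 106 and 97.7 CPM in nurses (log2 fold change 1.81, SE 0.16, adjusted p = 0.000128). AGLU2, its neighbour on the chromosome and a second alpha-glucosidase, was at 94.4, 128 and 113 CPM in foragers and 81.4, 62.3 and 69.5 CPM in nurses (log2 fold change 0.65, SE 0.13, adjusted p = 0.0188). The remaining gene of the list, Hbg2, was low in both groups, at 0.625 ± 0.232 CPM in foragers and 0.935 ± 0.240 CPM in nurses (adjusted p = 0.381). In newly emerged workers, as a description, Hbg3 averaged 21.8 ± 3.67 CPM and AGLU2 15.6 ± 1.35 CPM. Hbg3 passed without any 1 library, and AGLU2 did not pass without forager 2 or nurse 2. The genes lie side by side and may share reads.

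The carriers of odours in the fluid around the sensory neurons changed gene by gene. Chemosensory proteins are small soluble proteins that bind hydrophobic compounds. CSP3 was at 7877, 6944 and 8138 CPM in foragers and 4139, 3363 and 5074 CPM in nurses (log2 fold change 0.87, SE 0.17, adjusted p = 0.0132). CSP2 was at 12.7, 10.8 and 9.65 CPM in foragers and 28.6, 32.0 and 31.2 CPM in nurses (log2 fold change -1.47, SE 0.16, adjusted p = 0.000691). CSP4 averaged 369 ± 93.0 CPM in foragers and 604 ± 103 CPM in nurses (log2 fold change -0.71, adjusted p = 0.0391). Of 5 chemosensory protein genes tested, 1 was thus higher and 2 were lower, against 1.91% and 2.1% of all genes, and CSP1 and CSP6 did not pass. The call of CSP3 ended without nurse 2, and that of CSP4 ended without forager 1, forager 3, nurse 1 or nurse 2.

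Of 19 odorant binding protein genes tested, 1 was higher in foragers and 0 were lower, near the share of all genes (1.91% and 2.1%), with a median log2 fold change of 0.06. The one called, Obp16, was at 2493, 2989 and 2992 CPM in foragers and 1724, 1348 and 1947 CPM in nurses (log2 fold change 0.76, SE 0.13, adjusted p = 0.00881), and passed without any 1 library. Obp19 was at 244, 268 and 343 CPM in foragers and 186, 98.3 and 185 CPM in nurses (adjusted p = 0.0645), and Obp17 at 209, 266 and 247 CPM in foragers and 438, 366 and 504 CPM in nurses (adjusted p = 0.0863). Both sets of libraries were apart without passing. Obp1, the binding protein of the queen's mandibular pheromone, averaged 19422 ± 3799 CPM in foragers and 18316 ± 424 CPM in nurses (log2 fold change 0.08, adjusted p = 0.803).

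No odorant receptor gene passed the test, while the only gustatory receptor gene tested did. Of 35 odorant receptor genes tested, 0 were called by edgeR, which is near the share of all genes (4.01%). At an unadjusted p under 0.05 there were 5, and DESeq2 called 2 higher in foragers. Or2, the coreceptor that odorant receptors need, was at 197.5, 246 and 152 CPM in foragers and 238, 189 and 101 CPM in nurses, and the groups overlapped. Or11, the receptor of the main queen pheromone component in drones, averaged 47.3 ± 6.09 CPM in foragers and 45.1 ± 1.47 CPM in nurses (adjusted p = 0.789). The log2 fold change was above 0 for 30 of the 35, with a median of 0.17, and for 19 of them, with a median of 0.03, without forager 2, the library whose summed receptor level was highest at 1040 CPM. In 4 of the 35 all foragers were above all nurses, and in 0 below, against 9.18% and 8.92% of all genes; the nearest to the threshold was Or9, at 6.80 CPM in foragers and 4.89 CPM in nurses (adjusted p = 0.0776). Gr10, a gustatory receptor, was at 2.45, 2.47 and 2.98 CPM in foragers and 6.403, 4.90 and 5.16 CPM in nurses (log2 fold change -1.06, SE 0.16, adjusted p = 0.00471), from 233 to 247 reads in foragers and 362 to 597 in nurses. Receptor genes that carry only a LOC identifier with no matching synonym could not be placed in these lists.

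Dat, the dopamine transporter that takes dopamine back into neurons, was at 51.6, 54.6 and 46.8 CPM in foragers and 25.0, 24.9 and 30.0 CPM in nurses (log2 fold change 0.94, SE 0.16, adjusted p = 0.00855). The libraries were apart, and the call stood without any 1 of them. It was 1 of 11 tested genes of biogenic amine signalling and the only one called, against 4.01% of all genes. The dopamine receptors did not pass: Dop1 averaged 3.75 ± 0.423 CPM in foragers and 4.46 ± 0.195 CPM in nurses, DopR2 4.46 ± 0.438 CPM in foragers and 4.65 ± 0.211 CPM in nurses, and Dop3 1.22 ± 0.441 CPM in foragers and 1.46 ± 0.552 CPM in nurses (adjusted p = 0.343, 0.851 and 0.743). The octopamine receptor gene Oa1 was at 43.1 ± 2.26 CPM in foragers and 42.6 ± 1.598 CPM in nurses (adjusted p = 0.964).

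Some further nervous system genes were grouped only after their values had been seen, so the counts are descriptions. Of 10 subunit genes of the nicotinic acetylcholine receptor, the main excitatory receptor of the insect brain, 1 was called, against 4.01% of all genes. This was nAChRa9, at 5.58, 4.88 and 2.76 CPM in foragers and 1.49, 1.20 and 1.89 CPM in nurses (log2 fold change 1.53, SE 0.30, adjusted p = 0.0143), and it did not pass without forager 1 or nurse 2. The subunit nAChRb2 was higher in foragers by DESeq2 alone (log2 fold change 1.30, adjusted p = 0.066 with edgeR and 0.0151 with DESeq2). Of 9 genes of neuronal recognition and adhesion, 3 were lower in foragers and 0 higher, against 2.1% and 1.91% of all genes, with 1 lower without forager 1, forager 2 or nurse 2. NLG-3, a neuroligin that spans the synapse from the receiving side, was at 10.2, 10.7 and 9.36 CPM in foragers and 17.7, 17.5 and 16.1 CPM in nurses (log2 fold change -0.76, SE 0.11, adjusted p = 0.00271), and passed without any 1 library. EphR, a receptor of axon guidance, was at 138, 113.5 and 142 CPM in foragers and 168, 212 and 178 CPM in nurses (log2 fold change -0.50, adjusted p = 0.0287). Dscam, a cell surface protein of self recognition, averaged 156 ± 25.7 CPM in foragers and 249 ± 55.6 CPM in nurses (log2 fold change -0.68, adjusted p = 0.0392). The EphR call ended without forager 1, forager 2 or nurse 2, and that of Dscam without any of the 6 but nurse 3. NLG-5, another gene of the list, was lower by DESeq2 alone (log2 fold change -0.63, adjusted p = 0.067 with edgeR and 0.020 with DESeq2). LOC551883, whose RefSeq synonym is Cav3, averaged 57.9 ± 10.996 CPM in foragers and 98.9 ± 10.52 CPM in nurses (log2 fold change -0.77, adjusted p = 0.00776).

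Of 5 general neuron markers 0 were called by edgeR, near the share of all genes (4.01%). There were 2 at an unadjusted p under 0.05, and DESeq2 called 1 lower in foragers. The median log2 fold change of the 5 was -0.16. The summed level was 2913 to 3370 CPM in foragers and 3326 to 3901 CPM in nurses. Para, the voltage-gated sodium channel, averaged 1365 ± 85.7 CPM in foragers and 1647 ± 173 CPM in nurses (log2 fold change -0.27, adjusted p = 0.145 with edgeR and 0.0459 with DESeq2), and brp, a protein of presynaptic active zones, 339 ± 27.9 CPM in foragers and 431 ± 19.5 CPM in nurses (adjusted p = 0.171). For 3 of the 5, Para, brp and Syt1, all foragers were below all nurses, against 8.92% of all genes. The part of such a shift in the lower levels of NLG-3, EphR and Dscam was not tested.

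Antioxidant enzymes, a list also set up after values had been seen, were slightly higher in foragers for 4 of 8 genes, against 1.91% of all genes. Cat, catalase, was at 834, 824 and 793 CPM in foragers and 694, 555 and 657 CPM in nurses (log2 fold change 0.36, SE 0.09, adjusted p = 0.0482). Gtpx1, a glutathione peroxidase-like enzyme, averaged 727 ± 10.2 CPM in foragers and 543 ± 49.8 CPM in nurses, Trxr-1, thioredoxin reductase, 294 ± 55.2 CPM in foragers and 210.4 ± 16.2 CPM in nurses, and MsrA, which repairs oxidised methionine, 40.9 ± 3.45 CPM in foragers and 29.5 ± 5.03 CPM in nurses. Their log2 fold changes were 0.42, 0.48 and 0.47 (adjusted p = 0.0425, 0.0488 and 0.0479). The 2 superoxide dismutases did not pass, with Sod1 at 348 ± 36.8 CPM in foragers and 344 ± 17.7 CPM in nurses (adjusted p = 0.966). The 4 calls lay just inside the threshold. Upper-quartile factors or no filter on low counts left 2, and 0 were called without forager 1, forager 2 or nurse 2, 1 without forager 3 or nurse 1 and 2 without nurse 3.

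**Figure D3:**
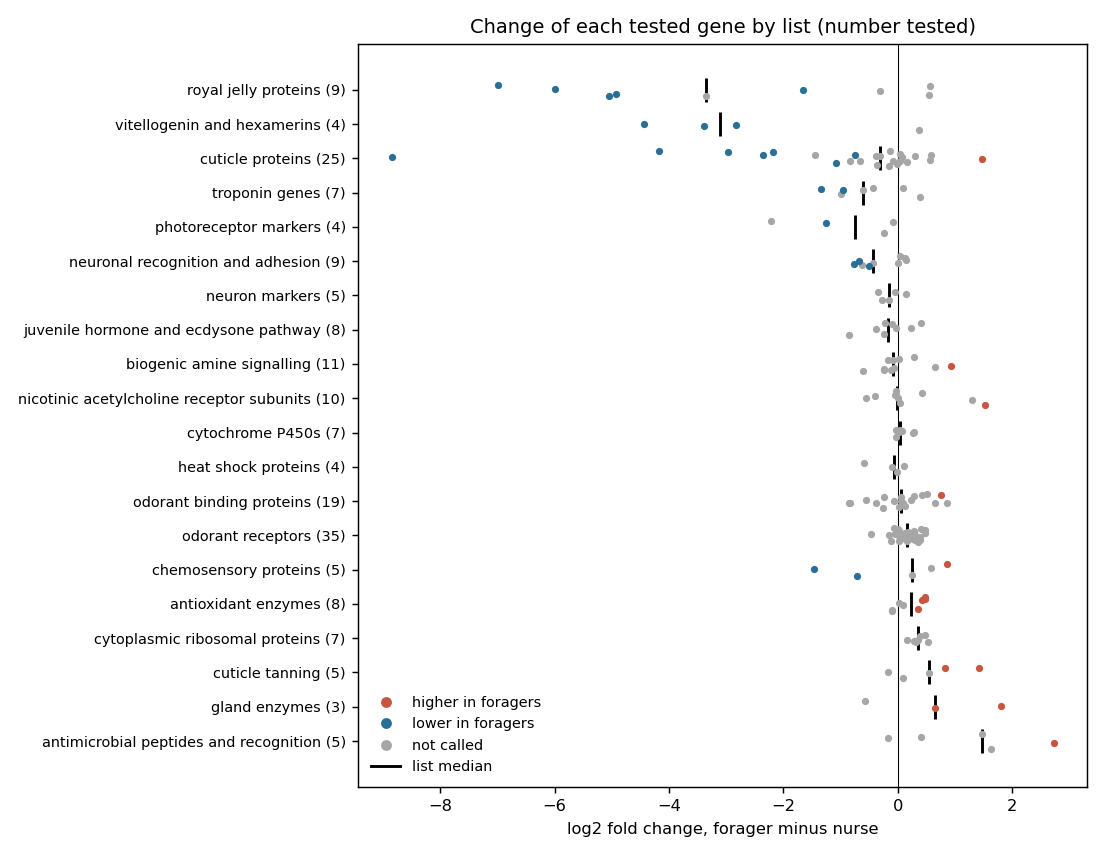
Log2 fold change (forager minus nurse) of each tested gene of 20 lists, with called genes in colour and the list median as a bar; the number tested is in brackets, and points are spread up and down for sight only. The medians of royal jelly proteins (-3.35) and of vitellogenin with hexamerins (-3.10) lie left of 0, although 2 of 9 and 1 of 4 genes lie right of it, and the medians of odorant receptors (0.17) and neuron markers (-0.16) are close to 0.

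Of 7 troponin genes, which were grouped after their values had been seen, 2 were lower in foragers and 0 higher, against 2.1% and 1.91% of all genes. Troponin C binds the calcium that starts contraction. TpnCI was at 108, 103 and 87.3 CPM in foragers and 170, 301 and 282 CPM in nurses (log2 fold change -1.34, SE 0.27, adjusted p = 0.0169). TpnCIIb averaged 2.71 ± 0.494 CPM in foragers and 5.26 ± 0.741 CPM in nurses (log2 fold change -0.95, adjusted p = 0.0220). TpnCIIIa, another troponin C, was not called, at 551 ± 13.1 CPM in foragers and 422 ± 66.0 CPM in nurses (log2 fold change 0.38, adjusted p = 0.136). TpnCIIa was lower by DESeq2 alone (log2 fold change -0.61, adjusted p = 0.0828 with edgeR and 0.0219 with DESeq2). The call of TpnCI ended without forager 2 or nurse 2, and that of TpnCIIb without forager 1 or nurse 2. The level of troponin T, TpnT, was 337, 164 and 230.4 CPM in foragers and 337, 491 and 636 CPM in nurses (adjusted p = 0.0543 with edgeR and 0.00352 with DESeq2), and it passed with edgeR without forager 1 or nurse 1. The level of troponin I, TpnI, was 418, 285 and 439 CPM in foragers and 389, 546.5 and 609 CPM in nurses (log2 fold change -0.43, adjusted p = 0.287). The groups overlapped for both. The sum over the 5 troponin C genes was 647 to 695 CPM in foragers and 599 to 812 CPM in nurses.

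Splicing was compared through the inclusion level, the deposited fraction of transcripts that hold the alternative segment, in 491 events of 332 genes. In a pair of mutually exclusive exons, which exon the level counts was not stated. A higher or lower level of such a pair can therefore not be assigned to either exon. With limma, 58 events (11.8%) in 38 genes differed at an adjusted p under 0.05, 24 with a higher level in foragers (4.89%) and 34 with a lower one (6.92%). The libraries of the groups did not overlap in 143 events (29.1%), among them all 58, whose differences ran from 0.133 to 0.498 in size. By type, 37 of 288 skipped exons, 17 of 90 mutually exclusive exon pairs, 2 of 43 alternative 3' sites, 2 of 44 alternative 5' sites and 0 of 26 retained introns (6 at an unadjusted p under 0.05) were called. These calls were fragile: 0 events were called without forager 3 (119 events at unadjusted p under 0.05, smallest adjusted p 0.0503), 12 without forager 1, 34 without nurse 2 and 0 with only the 6 forager and nurse libraries. The files give no read numbers, so the depth behind an inclusion level is unknown.

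Troponin T and I, which lie on the thin filament and hold contraction back until calcium binds, differed in several exons. In TpnT the inclusion level of a 31-base exon was 0.882, 0.943 and 0.925 in foragers and 0.660, 0.738 and 0.733 in nurses (difference 0.206, SE 0.0365, adjusted p = 0.0116). An 18-base exon of TpnT was at 0.533, 0.489 and 0.539 in foragers and 0.348, 0.263 and 0.335 in nurses (difference 0.205, adjusted p = 0.0116). A 79-base exon was lower in foragers, at 0.440, 0.530 and 0.395 in foragers and 0.655, 0.654 and 0.640 in nurses (difference -0.195, adjusted p = 0.0161). All 4 events of TpnT in the tables were called, the fourth being a pair of exclusive exons. In TpnI, 3 of 8 events were called, against 11.8% of all events. A 101-base exon of TpnI was at 0.461, 0.526 and 0.455 in foragers and 0.682, 0.690 and 0.682 in nurses (difference -0.204, SE 0.0400, adjusted p = 0.0155). Events of 1 gene share reads and are not independent of each other. In newly emerged workers the 31-base exon of TpnT averaged 0.352 and in defenders 0.894.

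The gene LOC409843, which has no name in the tables used here, held more called events than any other gene, 11 of 11. A 121-base exon was at 0.949, 0.956 and 0.986 in foragers and 0.534, 0.556 and 0.706 in nurses (difference 0.365, SE 0.0513, adjusted p = 0.00838, the smallest of all events). A pair of exclusive 118-base exons was at 0.530, 0.453 and 0.315 in foragers and 0.944, 0.959 and 0.890 in nurses (difference -0.498, adjusted p = 0.0155), the largest difference among the calls. Its level was not called (log2 fold change -0.58, adjusted p = 0.141). TpnT, TpnI and LOC409843 together held 18 of the 58 called events. LOC409821 followed with 4 called events of 14, against 11.8% of all events. Among the 4 was a 54-base exon at 0.905, 1 and 0.858 in foragers and 0.532, 0.752 and 0.549 in nurses.

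Genes of neurons were among the rest. In Dscam, whose exclusive exons give very many forms of the protein, 2 of 20 events were called, near the share of all events (11.8%). A 162-base exon of Dscam was at 0.385, 0.333 and 0.152 in foragers and 1, 0.583 and 0.657 in nurses (difference -0.457, SE 0.113, adjusted p = 0.0224); the call ended without forager 1, forager 3 or nurse 1. In GluCl, the glutamate-gated chloride channel that ivermectin opens, a 36-base exon was at 0.492, 0.474 and 0.510 in foragers and 0.613, 0.646 and 0.620 in nurses (difference -0.134, SE 0.0344, adjusted p = 0.0256). The 33-base exon of LOC726786 was at 0.632, 0.871 and 0.693 in foragers and 0.392, 0.200 and 0.120 in nurses (difference 0.495, adjusted p = 0.0116), and a 45-base exon of LOC413438 at 0.626, 0.580 and 0.694 in foragers and 0.293, 0.290 and 0.398 in nurses (difference 0.306, adjusted p = 0.0116). Of the 38 genes with a called event 3 (7.89%) were also called for their level, which is near the share of all 332 genes in the splicing tables, 26 (7.83%), where 4.01% of all genes tested were called.

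**Figure D4:**
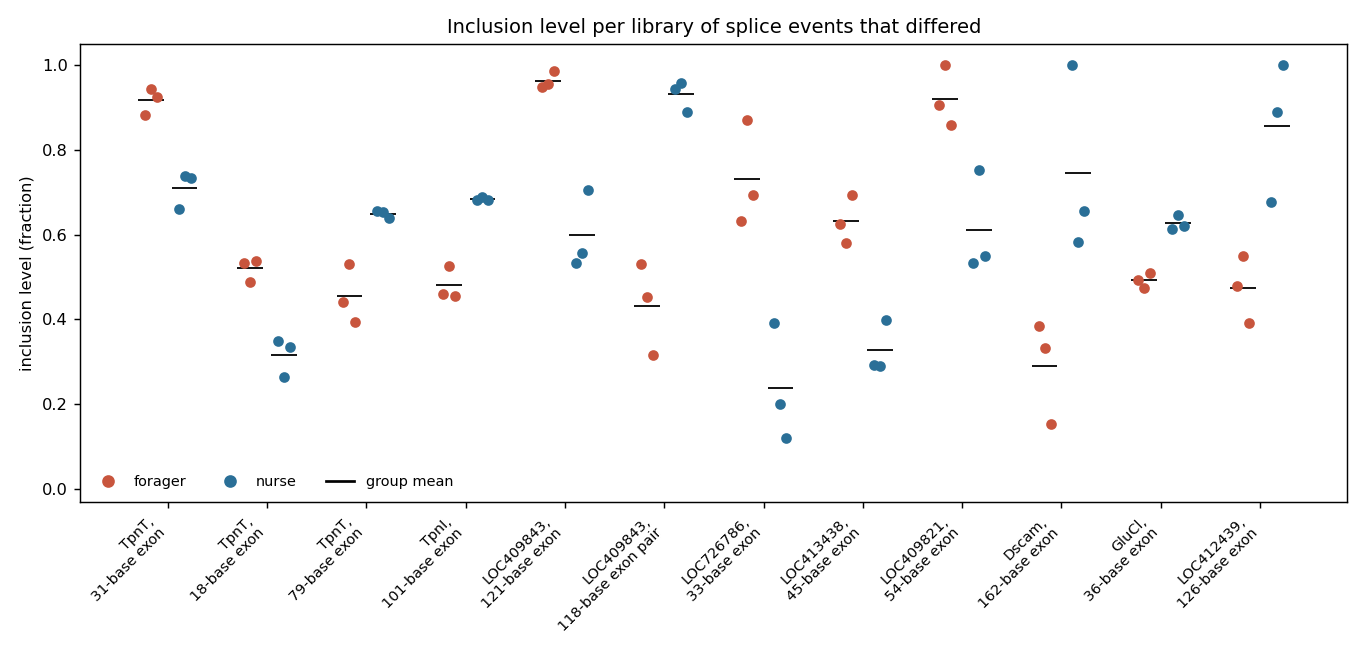
Inclusion level (fraction, 0 to 1) of 12 called splice events in 3 forager and 3 nurse libraries, with the group mean as a line; exon length is in the label. In each event the forager and nurse points are apart, as in the 121-base exon of LOC409843 with foragers at 0.949 to 0.986 and nurses at 0.534 to 0.706.

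Of the genes called, 411 carry only a LOC identifier and 41 a symbol. LOC552811 was at 539.6, 488 and 347 CPM in foragers and 50.1, 24.6 and 57.3 CPM in nurses (log2 fold change 3.38, SE 0.28, adjusted p = 0.00012), and averaged 433 ± 34.1 CPM in defenders. LOC412768 was at 949, 2604 and 2287 CPM in foragers and 316, 153 and 376 CPM in nurses (log2 fold change 2.79, SE 0.40, adjusted p = 0.00336). LOC552685 was at 0.0698, 0.150 and 0.141 CPM in foragers, from 7 to 15 reads, and 6.29, 17.9 and 6.07 CPM in nurses (log2 fold change -6.39, SE 0.64, adjusted p = 0.0004), beside 425 ± 166 CPM in newly emerged workers. These 3 genes passed without any 1 library, with LOC552685 at a log2 fold change of -5.69 without nurse 2. LOC406093 was at 9.92, 4.86 and 21.9 CPM in foragers and 259, 39.4 and 30.9 CPM in nurses (log2 fold change -3.17, SE 0.78, adjusted p = 0.048). Its call ended without forager 1, forager 2 or nurse 1. Without single libraries its log2 fold change ran from -3.89 to -1.53.

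Long noncoding RNA (lncRNA) genes, whose transcripts have no known coding frame, were mostly higher in foragers where called. The difference between gene types was not tested. Of 1540 lncRNA genes tested 61 were higher in foragers and 13 lower, while of 9611 protein-coding genes 153 were higher and 223 lower. Of all genes tested, 1.91% were higher and 2.1% lower. In either direction, 4.81% of lncRNA and 3.91% of protein-coding genes were called, near the 4.01% of all genes. The median log2 fold change of all lncRNA genes tested was 0.14. More were higher than lower in each of the 12 alternatives, with 121 higher and 26 lower by DESeq2, 64 and 9 with upper-quartile factors, and 23 to 62 higher and 4 to 13 lower when single libraries were left out. Of the 61, 35 overlapped a protein-coding gene (57.4%), beside 998 of the 1540 tested (64.8%), and since strand use in counting is not given, reads of overlapping genes cannot be told apart. The single miRNA gene called, Mir6058, was at 34.1 ± 3.34 CPM in foragers and 54.7 ± 10.1 CPM in nurses (adjusted p = 0.0480).

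Some of the called genes were neighbours. Of the 452 called genes, 49 (10.8%) were followed by a gene called the same way and 5 by one called the other way, beside 1.91% and 2.1% of all genes called per direction. There were 6 runs of at least 3 genes. One held Apd-3, Apd-1, Apd-2 and LOC727165, all lower in foragers, with LOC727165 at 74.7, 86.5 and 63.2 CPM in foragers and 284, 172 and 269 CPM in nurses. A second held Mrjp3, Mrjp1 and Mrjp4, and another, all higher in foragers, Hbg3, AGLU2 and a lncRNA gene. A run of 4 lncRNA genes was higher in foragers with log2 fold changes of 1.01 to 2.65. The 2 tested genes on either side of the Hbg3 run and the apidermin run were not called. The part of reads shared between neighbours in these runs was not tested.

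**Figure D5:**
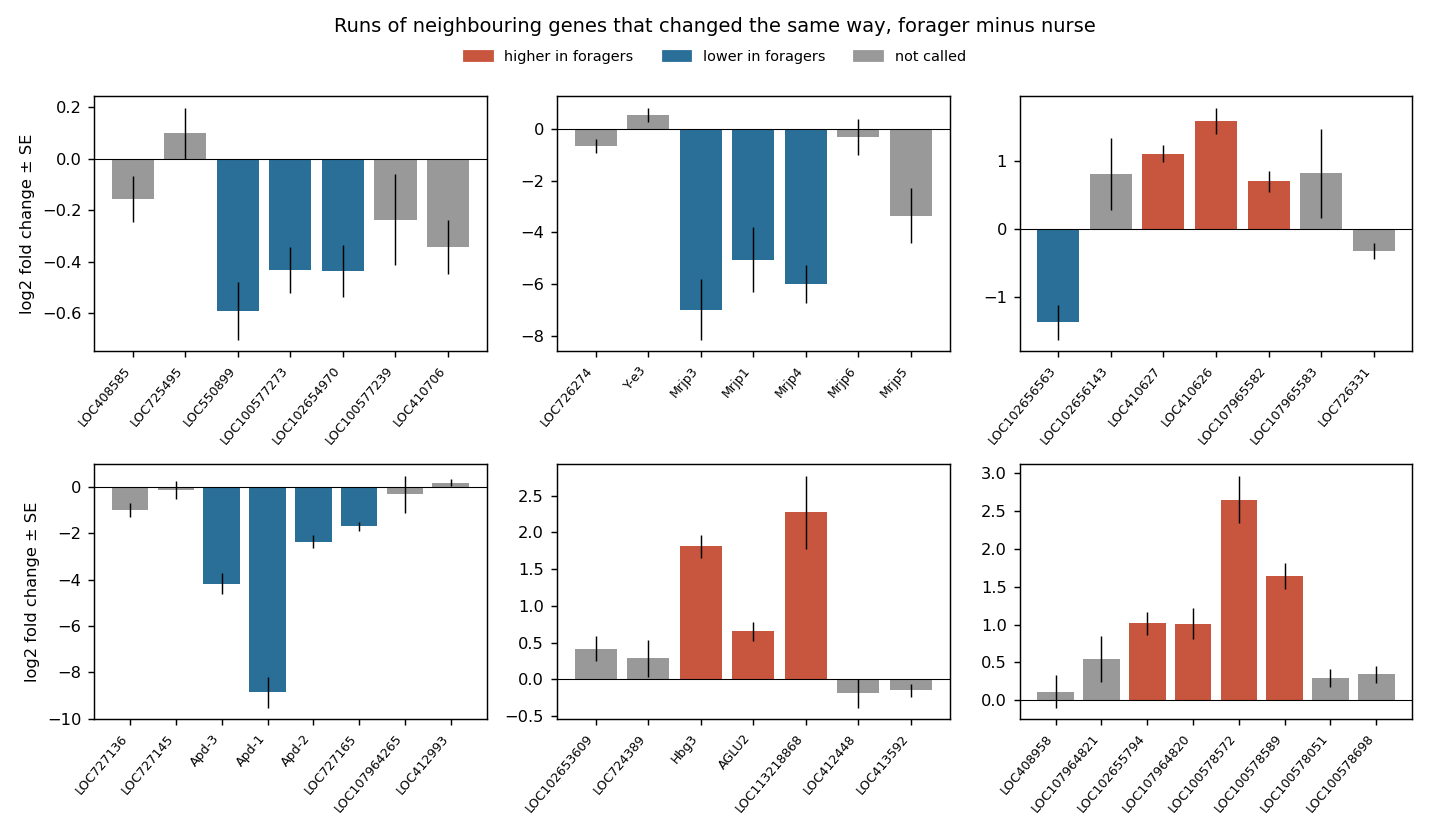
Log2 fold change (forager minus nurse, bars with SE) of the genes in the 6 runs of at least 3 neighbours called the same way and of the 2 tested genes on each side, in RefSeq gene order. The called genes in colour are mostly flanked by genes that were not called (grey), as at the run with Apd-1 and the run with Hbg3.

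Several pathways tied to the change from nursing to foraging in other tissues held no edgeR call. With 4.01% of all genes called, no call in lists this small is near the share of all genes. Among 8 genes of juvenile hormone and ecdysone signalling 0 passed with edgeR, with 2 at an unadjusted p under 0.05 and 1 called lower in foragers by DESeq2. The early response gene of juvenile hormone, Kr-h1, averaged 41.7 ± 10.4 CPM in foragers and 31.6 ± 14.2 CPM in nurses (log2 fold change 0.40, adjusted p = 0.548), and E75 2750 ± 1268 CPM in foragers and 3266 ± 584 CPM in nurses (adjusted p = 0.711). Jhe, the esterase that breaks juvenile hormone down, was at 229, 447 and 329 CPM in foragers and 502, 747 and 488 CPM in nurses, apart but not called by edgeR (log2 fold change -0.79, adjusted p = 0.0672). It was called by DESeq2 (adjusted p = 0.00918), and by edgeR without forager 2 (log2 fold change -1.05, adjusted p = 0.0227), and its adjusted p without single libraries ran from 0.0227 to 0.286. For, the cGMP-dependent protein kinase known as foraging, was at 109.5 ± 5.56 CPM in foragers and 129.6 ± 33.1 CPM in nurses (log2 fold change -0.24, adjusted p = 0.481). Per, which carries the feedback loop of the circadian clock, averaged 73.9 ± 12.1 CPM in foragers and 79.5 ± 11.5 CPM in nurses (adjusted p = 0.817).

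Housekeeping and detoxification lists likewise held no edgeR call, which for lists this small is near the share of all genes (4.01%). The 7 cytochrome P450 genes, 3 glutathione S-transferase genes, 4 heat shock genes and 3 oxidative phosphorylation genes gave 0 calls each with edgeR, and 1 glutathione S-transferase gene alone was at an unadjusted p under 0.05 and was called lower in foragers by DESeq2. CYP6AQ1, the most abundant of these P450s, averaged 13985 ± 2231 CPM in foragers and 13239 ± 811 CPM in nurses (adjusted p = 0.813), and Hsc70-4, a chaperone, 8401 ± 1659 CPM in foragers and 9001 ± 1501 CPM in nurses (adjusted p = 0.800). The 7 cytoplasmic ribosomal protein genes with a symbol all had a log2 fold change above 0, with a median of 0.35, and all 7 were above 0 in each setting run. With edgeR 0 passed, 4 were at an unadjusted p under 0.05 and DESeq2 called 1, and without nurse 3 edgeR called 3. Nearest was RpL35, at 160.3 ± 11.6 CPM in foragers and 122 ± 10.1 CPM in nurses (adjusted p = 0.0574). A p that misses the threshold does not show that the groups are alike.

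Markers of other cell types were low. The glia marker Eaat-2 was at 17.2 to 18.7 CPM in foragers and 20.3 to 21.97 CPM in nurses (adjusted p = 0.412). Among 4 opsin genes, which mark photoreceptors, Blop, the blue-sensitive opsin, was at 1.10, 1.32 and 1.69 CPM in foragers and 4.68, 2.61 and 2.43 CPM in nurses (log2 fold change -1.25, adjusted p = 0.0412), a call that ended without forager 1, forager 2, nurse 1 or nurse 2. Lop1, the long-wavelength opsin of the compound eye, was at 6.49, 0.540 and 5.28 CPM in foragers and 42.0, 11.8 and 3.26 CPM in nurses (adjusted p = 0.226). Among nurses it was highest in nurse 1, as were Mrjp1 to Mrjp7. Among foragers Lop1 was highest in forager 1, while Mrjp1 to Mrjp7 were highest in forager 3. Blop followed the order of Mrjp1 to Mrjp7, with forager 3 the highest forager and nurse 1 above nurse 2 above nurse 3. The part of head tissue in the lower royal jelly and opsin levels of foragers was not tested.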

How the data were processed

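RNA of honey bee worker antennae was read on a DNBSEQ sequencer. The authors deposited whole-number counts per gene, not normalized, and splicing tables that hold the inclusion level as a fraction per event and library. The aligner, counter, splicing program, build and strand setting were not stated in usable form. Groups and library numbers follow the sample titles, with the number taken from directly after the group name. Some titles end in a different replicate number. Names of 12167 of 12319 genes matched the RefSeq table of Amel_HAv3.1, which gave only names, gene types and gene order. Counts were tested with edgeR 4.0.16 in R 4.3.3 (TMM factors, filterByExpr, robust glmQLFit, glmQLFTest, two-sided), with all 12 libraries and 4 group means. Calls have a Benjamini-Hochberg adjusted p under 0.05 over 11271 genes. CPM values use TMM-scaled library sizes. Inclusion levels were tested with limma 3.58.1 in the same design over 491 events, and DESeq2 1.42.0 was an alternative. The tests were tried on simulated data.

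Gene lists (37) were matched by symbol or synonym, since no gene descriptions were at hand; 29 had a tested member, with 180 genes in all, and 4 lists were added after values were seen. Members and lists were chosen with earlier results of these data known. By rule, the text names the 10 largest changes per direction among called genes with a symbol. Their libraries do not overlap and their mean is 5 CPM or more in 1 group. By the same limits, the text takes only 2 per direction of the 411 called genes with a LOC identifier, so larger changes among these are left out. It also names up to 2 called members per list and direction, or the member with the highest mean where none was called, and Or2, Or11, Vg, Kr-h1, Per, Mrjp1 and For. Of splice events it takes the 12 largest called and the largest of each type. Names may be left out where a count sums them up, and other genes and events given with values were chosen after their values were seen. Malvolio was not found by symbol.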

Additional observations from a re-analysis of the deposited data

How the results depend on the processing

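With DESeq2, 885 genes differed (449 higher and 436 lower in foragers), and 450 of the 452 genes called by edgeR were among them. With only the forager and nurse libraries, where the spread rests on 4 residual degrees of freedom, 111 genes differed (54 higher, 57 lower; 16 list members, against 31 in the fit reported). With the replicate number as a block, 87 did (43 higher, 44 lower; 11 list members). Same-numbered libraries deviated together with correlations of -0.184, 0.293 and 0.0383 and only pair 2 correlated best with its own number. Deviations within groups of 3 libraries are too few to show or exclude that the numbers pair the samples. The block and the pairs used the number after the group name in the titles. The titles of forager 1 and nurse 1 end in replicate number 2, so the labels conflict on the numbering of these libraries. In splicing, both fits gave 0 calls (0 higher, 0 lower), with 123 and 118 events at unadjusted p under 0.05 and smallest adjusted p of 0.0506 and 0.106; the cause was not tested. Leaving out 1 library gave 176 to 532 genes (71 to 267 higher, 105 to 301 lower; 17 to 36 list members) and 0 to 58 events (0 to 23 higher, 0 to 35 lower). Nurse 2 and forager 1 mattered most for genes, with 176 and 259 called without them, and 288 were called without forager 2; without forager 3, 0 events were called, without forager 1 12 and without nurse 2 34. In each of these settings no gene or event called changed sign. Upper-quartile factors gave 423 genes, of which 53% were higher, against 47.6%. Of the 452 genes, 150 (33.2%) passed without each library in turn, and 0 of the 58 events. Read depth limits Apd-1, Apd-3 and LOC552685 in foragers, where 18 or fewer reads were counted per library.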

Other observations

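In the skipped-exon table, 25 of the 37 called events stood among the first 33 of its 288 events. How the authors ordered or selected events was not stated. The share of events called is therefore a share of this table and not of all exons of the bee. The length of the alternative segment was a multiple of 3 in 55.2% of the called events and in 54% of all events tested. For pairs of exclusive exons only the length of the first exon was used, so these shares do not tell how often the reading frame is kept. For skipped exons alone the shares were 54.1% of those called and 55.9% of those tested. Of the 452 called genes, 451 had no overlap between forager and nurse libraries, and 183 genes with a log2 fold change of at least 1 in size were not called.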
